A study of Homo sapiens with 9 samples.

Results

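The genes followed here are the G1 cyclins CCND2, CCND3, CCNE1 and CCNE2, the cyclin-dependent kinases CDK4 and CDK6, and the kinase inhibitors CDKN1A, CDKN1B, CDKN2C and CDKN2D. They were taken by gene name from the expression tables, and make up 10 of the 60623 genes listed. RNA-seq was run on U937, a human monocytic leukemia cell line, before and 12 and 48 h after addition of 5 μg/ml doxycycline. The 3 stable lines carried a doxycycline-inducible construct for HA-tagged AML1-ETO (labelled AE over-expressed), one for HA-tagged ETO2-GLIS2 (labelled EG over-expressed) or the empty vector (labelled WT and CTR), and the 0 h libraries were uninduced. Each fusion line is 1 clone (#4 for AML1-ETO and #14 for ETO2-GLIS2), all lines received the same drug, and each of the 9 conditions has 1 library. Line, clone and fusion protein therefore cannot be told apart, and no difference below has a replicate check or a test. The empty vector line is called control cells. The question put to these genes is which of them differed from 0 h at 12 h, when no listed gene of DNA replication or mitosis was called lower.

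Cells leave G1 when D-type cyclins activate CDK4 and CDK6, and cyclin E then activates CDK2. Both kinase complexes phosphorylate the RB protein, which releases E2F factors and so switches on genes for DNA replication. The INK4 inhibitors, among them CDKN2C (p18) and CDKN2D (p19), bind CDK4 and CDK6 alone. The CIP/KIP inhibitors CDKN1A (p21), a p53 target, and CDKN1B (p27) bind cyclin-CDK complexes and block cyclin E-CDK2 above all. In myeloid cells, withdrawal from the cycle with a gain of these inhibitors is a familiar part of terminal differentiation.

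Values are FPKM, gene reads divided by exon length and library size, so levels set side by side between genes depend on the exon length used. The reads behind each value were recovered from the decimals, and the libraries held between 15136397 and 18443639 reads. Differences are log2 of the ratio of FPKM after adding 0.01, and the ranges in brackets are 95% intervals that cover counting error only. A gene was called past 2-fold when the mean of both libraries was at least 1 FPKM and, within a fusion line, control cells had not passed 2-fold in the same direction. All 10 genes passed this filter on low values in every comparison. The verbs rose and fell are kept for genes called in this way.

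The labels were checked on the transcripts the fusions carry. RUNX1T1, which encodes ETO, was at 0.512 FPKM at 0 h, 22.2 at 12 h and 28.7 at 48 h in AML1-ETO cells, and at or below 0.024 in the other 6 libraries. GLIS2 was at 2.39, 6.79 and 8.85 FPKM in ETO2-GLIS2 cells, and lay between 2.47 and 5.60 in the other 6 libraries. RUNX1T1 was thus read in AML1-ETO cells before induction, from 115 reads. The paper holds leaky expression without doxycycline to be likely in both fusion lines. The part of such expression in the 0 h differences between lines was not tested. Of 12 myeloid markers, 8 were at or above 1 FPKM in all 9 libraries, and their sum lay between 338 and 2240 FPKM. The lowest sum was that of AML1-ETO cells at 48 h, after 1830 at 0 h, and 4 of 8 tested markers were past 2-fold lower there, LYZ (970 to 45.1 FPKM), SPI1 (92.6 to 11.9), TYROBP (16.9 to 1.59) and ELANE, and 1 higher. At 48 h the sum was 895 in control and 807 in ETO2-GLIS2 cells, after 1210 and 2080. There 1 of 9 and 2 of 9 markers were past 2-fold lower, and 3 of 9 in each line were past 2-fold higher. ITGAM was among the higher ones in both, from 1.17 to 2.78 and from 2.23 to 11.5 FPKM. These marker counts keep genes that moved alike in control cells. Of all tested genes 11.0%, 22.5% and 7.52% were called at 48 h in control, AML1-ETO and ETO2-GLIS2 cells, without such genes in the fusion lines. Markers of T cells, erythroid cells, megakaryocytes, epithelium and fibroblasts summed to no more than 0.283 FPKM in any library. Those of B cells summed to between 1.91 and 5.77 FPKM, with MS4A1 at 0 in all 9. The mitochondrial share of reads was 6.38%, 5.75% and 6.57% at 0 h in control, AML1-ETO and ETO2-GLIS2 cells and 3.83%, 2.24% and 3.03% at 48 h, so it moved with time in every line. The part of these shifts in the changes below was not tested, and in bulk RNA fewer cells in a phase and less RNA per cell cannot be told apart.

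By FPKM, the family had the same top and bottom in every library. CDKN1B was the highest of the 10 in 9 of 9 libraries, between 49.4 and 91.8 FPKM. CCNE1 was the lowest in 9 of 9, between 0.961 and 2.97 FPKM. The exon length recovered with the reads of CDKN1B was 2565 bases, where the annotation used for exon overlaps gives 9255. The place of CDKN1B among the 10 may thus depend on the annotation. CDK4 came next to CDKN1B with 29.8 to 51.0 FPKM. CDK6, CDKN2C, CDKN1A and CCND3 formed the middle, with medians over the libraries of 26.6, 22.6, 15.3 and 13.2 FPKM. CCND2, CDKN2D and CCNE2 lay lower, with medians of 5.28, 4.93 and 3.68 FPKM. CDKN2D spanned 6.38-fold and CCNE2 4.80-fold, while CDK4 spanned 1.71-fold and CDKN1B 1.86-fold. The 2 genes of highest FPKM thus had the narrowest ranges. The widest were those of CDKN2D, read from 50 to 343 reads, and CCNE2, from 88 to 498.

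**Figure D1:**
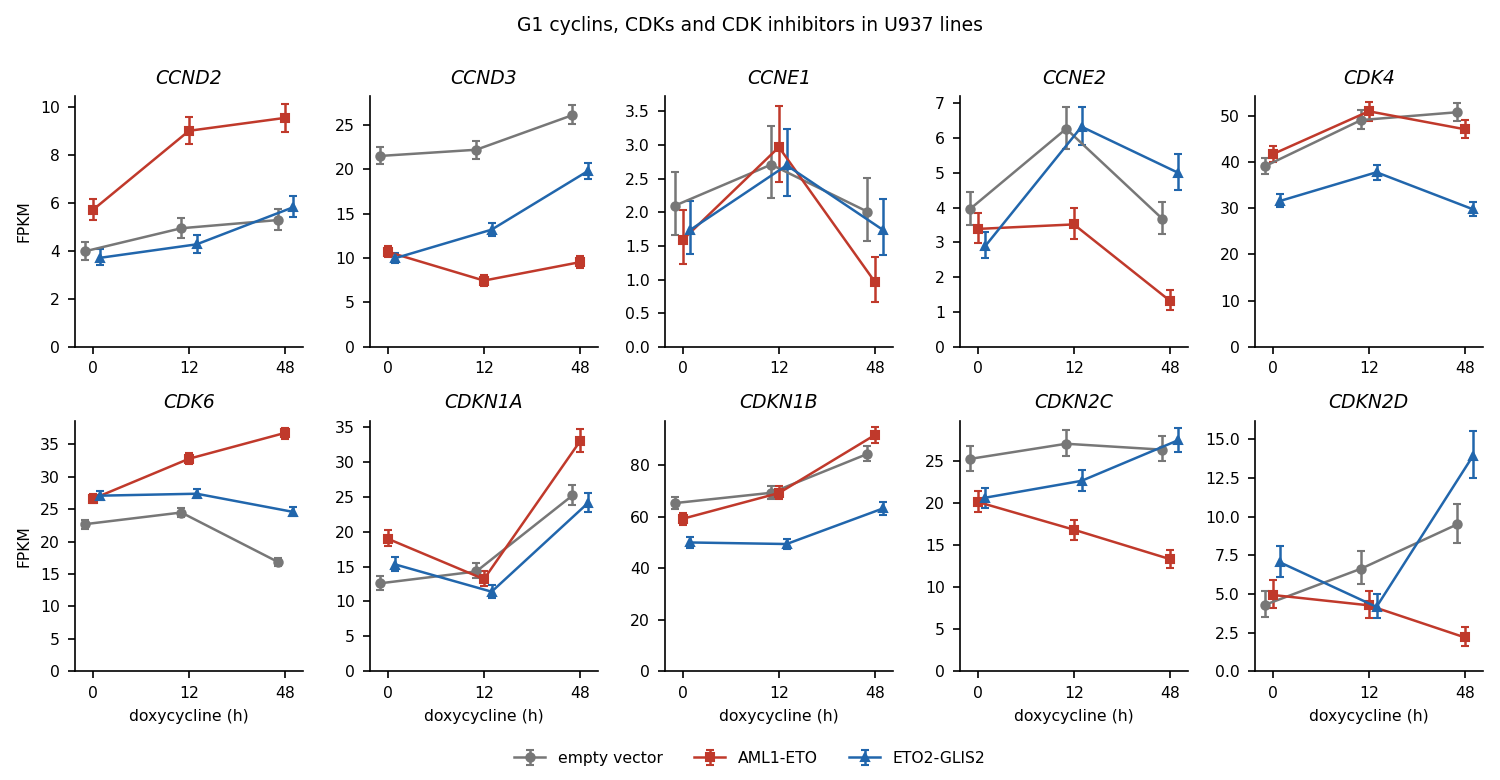
FPKM (vertical axis, from 0, a scale for each gene) of the 10 genes at 0, 12 and 48 h of doxycycline in the empty vector (grey circles), AML1-ETO (red squares) and ETO2-GLIS2 (blue triangles) lines; each point is 1 library and bars are 95% Poisson intervals on its reads. CDKN2D ends at 2.18 FPKM in AML1-ETO cells and at 13.9 in ETO2-GLIS2 cells, and CDKN1A is lowest at 12 h in both fusion clones.

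Few of these genes passed 2-fold, and mostly not at 12 h. At 12 h against 0 h, 0 of 10 were called in control cells, where 7.53% of all tested genes were, and 0 of 10 in AML1-ETO cells, where 6.27% were. In ETO2-GLIS2 cells CCNE2 rose, so that 1 of 10 was called, against 2.64% of all tested genes in either direction. At 48 h against 0 h, CDKN2D rose in control cells (1 of 10, background 11.0%), CCNE2 and CDKN2D fell in AML1-ETO cells (2 of 10, background 22.5%), and 0 of 10 were called in ETO2-GLIS2 cells (background 7.52%). Each count rests on 2 genes or fewer and is read as no result about the family, and the values of the single genes are given by role.

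The E-type cyclins, which activate CDK2 at the end of G1, were at their highest at 12 h in every line. CCNE2, at chr8:94880224-94896693 (GRCh38.p14), was at 3.96, 6.27 and 3.68 FPKM at 0, 12 and 48 h in control cells. In ETO2-GLIS2 cells it was at 2.90, 6.33 and 5.01 FPKM, and in AML1-ETO cells at 3.39, 3.52 and 1.32 FPKM. The 12 h library was thus the highest of its line in all 3 lines, but in AML1-ETO cells by less than the counting error.

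The rise of CCNE2 at 12 h in ETO2-GLIS2 cells was 1.13 on the log2 scale (0.90 to 1.36), above 97.6% of tested genes in that comparison. Control cells had a difference of 0.66 (0.44 to 0.89) at the same hour, which leaves 0.46 (0.15 to 0.78) between the 2 lines. With a pseudocount of 1 FPKM, or with the control change subtracted, the call was lost. In AML1-ETO cells the 12 h difference was 0.06 (-0.21 to 0.32), and the fall at 48 h was -1.36 (-1.73 to -1.01), or 2.56-fold. Annotated exons of genes on the opposite strand, INTS8 among them, cover 37.1% of the CCNE2 exons, and as the library kit does not mark strand, their reads cannot be told apart.

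CCNE1, at chr19:29811991-29824312 on the plus strand, was read from only 36 to 119 reads a library. It was at 2.10, 2.71 and 2.01 FPKM in control cells, at 1.59, 2.97 and 0.961 in AML1-ETO cells and at 1.74, 2.70 and 1.74 in ETO2-GLIS2 cells. All 3 lines had their highest value at 12 h, and the difference from 0 h exceeded counting error in both fusion clones, with 0.90 (0.45 to 1.36) for AML1-ETO and 0.63 (0.21 to 1.06) for ETO2-GLIS2. Between 12 and 48 h CCNE1 fell 3.07-fold and CCNE2 fell 2.66-fold in AML1-ETO cells. Together with CDKN1A, which rose, they made 3 of 10 genes called in this step, where 17.6% of all tested genes were called. Neither cyclin was called between 12 and 48 h in control cells, where 0 of 10 were called against a background of 5.26%.

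The D-type cyclins respond to growth signals and open the G1 program through CDK4 and CDK6. CCND3, at chr6:41934933-42050035 on the minus strand, differed between the lines before induction. It was at 21.5 FPKM in control cells at 0 h, against 10.7 with AML1-ETO and 9.99 with ETO2-GLIS2. The uninduced clones thus differed from control cells by -1.01 (-1.12 to -0.90) and -1.11 (-1.22 to -1.0), and from each other by 0.10 (-0.02 to 0.23), within counting error. With a pseudocount of 1 FPKM the first of these was no longer past 2-fold.

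After induction the fusion clones differed from each other. CCND3 was at 7.46 and 9.54 FPKM at 12 and 48 h in AML1-ETO cells, at 13.2 and 19.8 in ETO2-GLIS2 cells, and at 22.2 and 26.1 in control cells. The difference from 0 h at 12 h was -0.52 (-0.67 to -0.38) for AML1-ETO and 0.41 (0.29 to 0.52) for ETO2-GLIS2. At 48 h the latter reached 0.98 (0.88 to 1.09), just under 2-fold, and with FPKM rescaled to a common sum it passed with 1.17. The difference of ETO2-GLIS2 cells from control cells in CCND3 went from -1.11 at 0 h to -0.40 (-0.49 to -0.31) at 48 h.

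CCND2, at chr12:4273762-4305353, had its highest levels in AML1-ETO cells. It was at 5.70, 9.0 and 9.54 FPKM there, at 3.98, 4.94 and 5.28 in control cells, and at 3.71, 4.27 and 5.81 in ETO2-GLIS2 cells. Levels at 48 h were above those at 0 h in every line, by 0.74 (0.60 to 0.88), 0.41 (0.23 to 0.59) and 0.65 (0.48 to 0.82), none past 2-fold. In AML1-ETO cells 88.7% of the 48 h difference was present at 12 h, against 31.3% in ETO2-GLIS2 cells. With AML1-ETO the 2 D-type cyclins thus lay on opposite sides of their 0 h values at 12 h, CCND2 by 0.66 (0.52 to 0.80) and CCND3 by -0.52. At 12 h CCND2 was the 1 gene of the 10 called between the fusion clones, 2.10-fold higher with AML1-ETO, where 8.0% of all tested genes were called. CCND2 exons share 12.5% of their bases with other genes on the same strand, and CCND2 and CCND3 have annotated pseudogenes to which reads could also be assigned.

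The kinases are the partners of the D-type cyclins, and CDK4 had the narrowest range of the 10 genes. CDK4, at chr12:57747727-57752310 on the minus strand, was at 39.1, 49.1 and 50.8 FPKM in control cells, 41.7, 51.0 and 47.1 in AML1-ETO cells and 31.6, 37.8 and 29.8 in ETO2-GLIS2 cells. The 12 h difference was alike in the 3 lines, with 0.33 (0.24 to 0.42), 0.29 (0.20 to 0.37) and 0.25 (0.16 to 0.35), beside medians over all tested genes of 0.14, 0.18 and 0.11. At 48 h CDK4 in ETO2-GLIS2 cells was -0.77 (-0.86 to -0.68) against control cells, short of 2-fold. Exons of TSPAN31 on the opposite strand cover 44.2% of the CDK4 exons.

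CDK6, at chr7:92604921-92836573 on the minus strand, was the best counted of the family, with 3184 to 6859 reads. It was at 22.7, 24.5 and 16.9 FPKM in control cells, at 26.6, 32.8 and 36.8 in AML1-ETO cells and at 27.1, 27.4 and 24.6 in ETO2-GLIS2 cells. At 48 h control cells were below their start by -0.43 (-0.49 to -0.36), and AML1-ETO cells were above theirs by 0.47 (0.42 to 0.52). The 2 lines differed by 1.12 (1.06 to 1.18) at 48 h, so that CDK6 was called higher with AML1-ETO, 2.18-fold, although within AML1-ETO cells over time it was not called.

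Of the CIP/KIP inhibitors, CDKN1A was below its 0 h level at 12 h and above it at 48 h in both fusion clones. CDKN1A, at chr6:36676463-36687332 on the plus strand, was at 12.6, 14.3 and 25.2 FPKM in control cells, at 19.0, 13.2 and 33.0 in AML1-ETO cells and at 15.3, 11.4 and 24.1 in ETO2-GLIS2 cells. In both fusion clones the 12 h library was the lowest of the 3 and the 48 h library the highest, whereas control cells had their lowest value at 0 h. The 12 h differences were -0.53 (-0.67 to -0.38) with AML1-ETO and -0.43 (-0.58 to -0.28) with ETO2-GLIS2, against 0.19 (0.03 to 0.35) in control cells. After subtraction of the control difference they were -0.71 (-0.93 to -0.50) and -0.62 (-0.83 to -0.40). Both clones were above control cells at 0 h, by 0.60 (0.45 to 0.74) with AML1-ETO and 0.28 (0.13 to 0.43) with ETO2-GLIS2. At 12 h they differed from control cells by -0.12 (-0.28 to 0.04), within counting error, and by -0.33 (-0.49 to -0.17).

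At 48 h against 0 h CDKN1A differed by 0.79 (0.68 to 0.91) and 0.65 (0.53 to 0.78) in the fusion clones. Control cells gave 1.0 (0.86 to 1.14), a ratio at the 2-fold limit that was not called with the pseudocount of 0.01 and was with rescaling to a common sum. The late difference in the cells without a fusion was thus not smaller. From 12 to 48 h CDKN1A rose 2.50-fold with AML1-ETO and 2.12-fold with ETO2-GLIS2, where CDKN2D rose as well, so that 2 of 10 genes were called against a background of 6.40%. After subtraction of control cells 1 of 10 was past 2-fold in that step of ETO2-GLIS2 cells.

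CDKN1B, at chr12:12717368-12722369 on the plus strand, was at 65.3, 69.3 and 84.4 FPKM in control cells, 59.2, 69.2 and 91.8 in AML1-ETO cells and 50.0, 49.4 and 63.2 in ETO2-GLIS2 cells. Its highest library was the 48 h one in each line. The differences from 0 h were 0.37 (0.30 to 0.44), 0.63 (0.56 to 0.71) and 0.34 (0.26 to 0.42), none of them past 2-fold, beside medians over all tested genes of 0.16, 0.22 and 0.16.

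Of the 10 genes, the INK4 inhibitor CDKN2D differed most between the fusion clones at 48 h. CDKN2D, at chr19:10566460-10568979 on the minus strand, was at 4.29, 6.63 and 9.50 FPKM in control cells, at 4.93, 4.26 and 2.18 in AML1-ETO cells and at 7.03, 4.16 and 13.9 in ETO2-GLIS2 cells. Control cells were higher at each later time, AML1-ETO cells were lowest at 48 h, and ETO2-GLIS2 cells were lowest at 12 h and highest at 48 h.

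At 12 h CDKN2D differed from 0 h by 0.63 (0.26 to 1.0) in control cells, by -0.21 (-0.61 to 0.18) with AML1-ETO, within counting error, and by -0.75 (-1.10 to -0.41) with ETO2-GLIS2. The last was below all but 2.33% of tested genes in that comparison. Less the control change the difference was -0.84 (-1.36 to -0.31) with AML1-ETO and -1.38 (-1.87 to -0.89) with ETO2-GLIS2, so that CDKN2D and not CCNE2 was past 2-fold in ETO2-GLIS2 cells on that scale. At 48 h it rose by 1.15 (0.81 to 1.5) in control cells and fell by 1.17 on the log2 scale (-1.68 to -0.69) with AML1-ETO. With ETO2-GLIS2 the 48 h difference was 0.99 (0.73 to 1.25), just under 2-fold, and CDKN2D rose 3.34-fold between 12 and 48 h. With a pseudocount of 1 FPKM neither 48 h call of CDKN2D held. After rescaling by the median ratio control cells were at 0.99.

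CDKN2C, at chr1:50960745-50974634 on the plus strand, was at 25.2, 27.0 and 26.3 FPKM in control cells, at 20.1, 16.8 and 13.3 in AML1-ETO cells and at 20.6, 22.6 and 27.4 in ETO2-GLIS2 cells. The fusion clones started at like levels and ended 2.06-fold apart. The 48 h difference from 0 h was -0.60 (-0.74 to -0.45) with AML1-ETO and 0.41 (0.30 to 0.53) with ETO2-GLIS2, against 0.06 (-0.05 to 0.18) in control cells. In AML1-ETO cells 44.4% of it was present at 12 h. An annotated gene on the opposite strand covers 20.4% of the CDKN2C exons, and none overlaps those of CDKN2D.

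**Figure D2:**
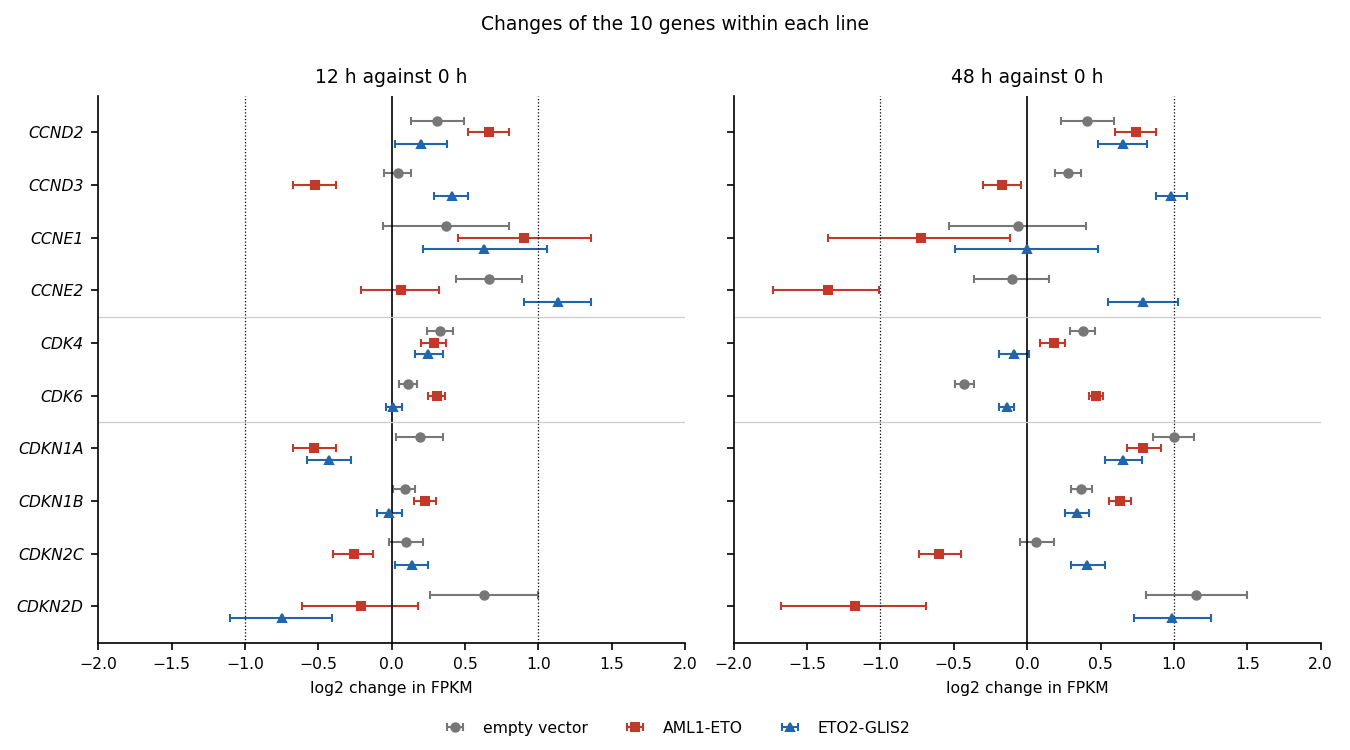
Log2 change in FPKM (horizontal axis) of each gene at 12 h (left) and 48 h (right) against 0 h of the same line, with 95% counting intervals; dotted lines mark 2-fold. At 12 h the 1 point past 2-fold is CCNE2 in ETO2-GLIS2 cells at 1.13, and at 48 h CCNE2 (-1.36) and CDKN2D (-1.17) of AML1-ETO cells are the 2 points below the lower dotted line.

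Because CDKN2D and CDKN2C were called between the fusion clones at 48 h and CDKN1A was lowest at 12 h in both clones, the sequences upstream of these 3 genes are shown. They are the 250 bases before the start given by RefSeq (GRCh38.p14), on the gene's strand, from chr19:10568980-10569229 (minus), chr1:50960495-50960744 (plus) and chr6:36678464-36678713 (plus). For CDKN1A this start lies inside the span of the gene given above. Capitals mark GC boxes (GGGCGG, or CCGCCC for the other strand), the core of SP1 sites, and CCAAT boxes.
CDKN2D: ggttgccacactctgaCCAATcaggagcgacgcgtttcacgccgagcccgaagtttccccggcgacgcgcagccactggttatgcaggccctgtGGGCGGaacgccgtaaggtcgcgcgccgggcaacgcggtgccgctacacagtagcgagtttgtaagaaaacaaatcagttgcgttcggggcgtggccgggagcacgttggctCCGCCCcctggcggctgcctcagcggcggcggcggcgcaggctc
CDKN2C: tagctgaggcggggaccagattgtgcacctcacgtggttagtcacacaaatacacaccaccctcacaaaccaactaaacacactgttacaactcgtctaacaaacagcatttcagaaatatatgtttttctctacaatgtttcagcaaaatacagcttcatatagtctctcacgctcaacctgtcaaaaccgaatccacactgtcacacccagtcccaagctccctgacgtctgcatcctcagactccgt
CDKN1A: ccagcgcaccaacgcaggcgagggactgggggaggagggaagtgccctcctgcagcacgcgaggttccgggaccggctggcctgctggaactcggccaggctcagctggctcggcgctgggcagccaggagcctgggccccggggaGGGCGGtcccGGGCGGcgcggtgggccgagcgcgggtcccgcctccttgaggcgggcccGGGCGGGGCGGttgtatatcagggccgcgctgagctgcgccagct

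Within these 250 bases CDKN2D held 2 GC boxes and 1 CCAAT box, CDKN1A held 4 GC boxes of which 2 share a base, and CDKN2C held neither. Their GC content was 67.6%, 76.4% and 45.6%. The wider window of 300 bases, 250 before and 50 after the start, was available for 8 of the 10 genes, and CCND2 and CCNE2 had no entry. A GC box was found in 7 of these 8, beside 44.6% of 27326 promoters, and a CCAAT box in 2 of 8, beside 35.7%. Both words were added after 4 others had given no match.

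Those 4 were searched on both strands: an E2F word (TTTCCCGC, TTTCGCGC, TTTGCCGC or TTTGGCGC), a RUNX word (TGTGGT), a GLIS word (TGGGGGGT) and the CHR word of mitotic genes (TTTGAA). None of them was in any of the 8 windows. They are in 3.32%, 13.1%, 1.33% and 15.4% of all promoters. The E2F word was in 21 of 40 DNA replication genes with an entry and the CHR word in 23 of 32 mitosis genes. The absence says only that these letters are not in these windows.

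To look at order in time, the genes were set beside 46 DNA replication and 38 mitosis genes. At 12 h the replication genes had a median log2 change of 0.09 with the empty vector, -0.11 with AML1-ETO and 0.29 with ETO2-GLIS2, with 0 genes past 2-fold in each. The mitosis genes had -0.04, -0.17 and -0.08, again with 0 past 2-fold. The medians of all tested genes were 0.14, 0.18 and 0.11, so that the mitosis median was under it in each line and the replication median with the empty vector and AML1-ETO. With AML1-ETO 29 of 45 tested replication genes were below 0 h and 16 above, and 27 of 36 mitosis genes below and 9 above. In control cells 13 of 46 and 23 of 36 were below. CDC6 differed by -0.53 (-0.66 to -0.40) with AML1-ETO and by -0.23 in control cells. CCND3 and CDKN1A differed by -0.52 and -0.53 with AML1-ETO, much like CDC6. Less the control change, CDC6 was at -0.29 (-0.46 to -0.12), CCND3 at -0.57 (-0.73 to -0.40) and CDKN1A at -0.71 (-0.93 to -0.50). The replication and mitosis medians were -0.21 and -0.12 on that scale. Whether the CCND3 and CDKN1A changes came before those of the cycling genes was not tested.

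At 48 h the medians of the replication genes were -0.45, -1.51 and -0.63. Of the tested genes 37 of 45 fell with AML1-ETO, in the library with the lowest myeloid marker sum, 2 of 46 with ETO2-GLIS2 and 1 of 46 with the empty vector. The backgrounds in either direction were 22.5%, 7.52% and 11.0%, so the last 2 counts were under theirs. MCM5, a helicase subunit loaded at origins, was at 26.6, 28.1 and 5.14 FPKM in AML1-ETO cells. The mitosis genes had medians of 0.04, -0.97 and -0.10. Of these 17 of 36 tested genes fell with AML1-ETO and 0 of 36 in each of the other lines, against the same backgrounds.

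At 12 h 8 of the 10 G1 genes differed from 0 h beyond counting error in AML1-ETO cells, where 65.0% of all tested genes did. CCND2, CCNE1, CDK4, CDK6 and CDKN1B were higher, and CCND3, CDKN1A and CDKN2C were lower. In ETO2-GLIS2 cells it was also 8 of 10, against 54.7% of all tested genes, with CDKN1A and CDKN2D lower and CCND2, CCND3, CCNE1, CCNE2, CDK4 and CDKN2C higher. In control cells 7 of 10 were higher, against 55.8% of all tested genes in either direction, CCND2, CCNE2, CDK4, CDK6, CDKN1A, CDKN1B and CDKN2D, and none was lower beyond that error. Most tested genes pass this error in each line, and variation between cultures was not measured, so these sets describe the libraries alone.

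In AML1-ETO cells CCND3, CDKN1A, CDKN2C and CDKN2D were below 0 h at 12 h, by -0.52, -0.53, -0.26 and -0.21, the last within counting error. In control cells the changes of CCND3, 0.04 (-0.05 to 0.13), and CDKN2C, 0.10 (-0.02 to 0.21), lay within counting error and became -0.11 and -0.05 after rescaling by the median ratio. CDKN1A was above 0 h by 48 h, at 0.79, while CDKN2C and CDKN2D were lower than at 12 h. CCNE2 in AML1-ETO cells was close to its own 0 h value at 12 h, but as control cells were higher by then, the change less the control change was -0.61 (-0.94 to -0.27). Its fall at 48 h was -1.36, beside a median of -1.51 for the replication genes.

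In ETO2-GLIS2 cells, CCNE2 was called at 12 h when the replication genes stood at a median of 0.29. Both were lower at 48 h than at 12 h, CCNE2 by -0.34 (-0.54 to -0.14) and the replication genes by a median of -0.92. Control cells had the same step, with -0.77 (-1.0 to -0.54) for CCNE2 and a median of -0.51. Less the control change, CCNE2 was at 0.43 (0.13 to 0.73) and the replication median at -0.29. CDKN1A, CDKN2D and CCND3 were at their highest in the 48 h library of ETO2-GLIS2 cells, as they were in the 48 h library of control cells.

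**Figure D3:**
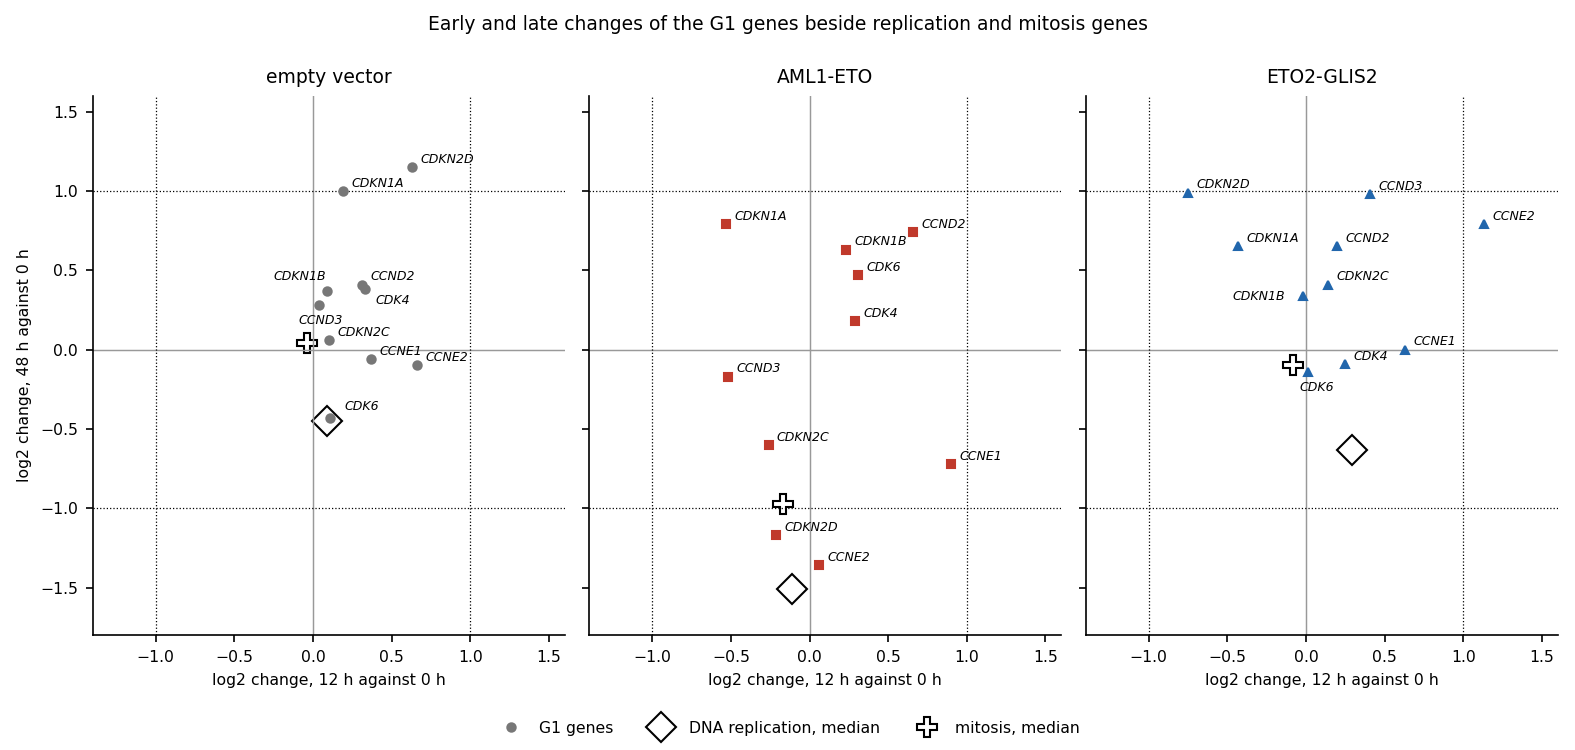
Log2 change at 12 h (horizontal axis) against log2 change at 48 h (vertical axis), both from 0 h, for the 10 genes in each line, with open diamonds for the median of the DNA replication genes and open crosses for that of the mitosis genes; dotted lines mark 2-fold. In AML1-ETO cells the replication median lies at -0.11 and -1.51, and CCNE2 (0.06 and -1.36) and CDKN2D (-0.21 and -1.17) lie nearest to it.

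Other genes of the RB-E2F pathway, 25 in all, were called within a line from 0 h at 48 h with AML1-ETO alone. There 2 rose and 7 fell of 22 tested, where 22.5% of all tested genes were called, with a median of -0.17 beside 0.22 for all tested genes. At 12 h 0 of 21 were called. E2F1, the activating factor that RB restrains, was at 13.7, 15.8 and 4.81 FPKM. E2F2, its close relative, was at 8.19, 6.73 and 1.66, and MYBL2, an E2F target that drives later cell cycle genes, at 111, 79.1 and 24.7. E2F5, a repressor-type member, rose from 0.473 to 1.92 FPKM. The other gene that rose was CDKN2B, which encodes the INK4 inhibitor p15, at 1.88, 3.0 and 5.67 FPKM, against 1.72, 1.68 and 1.88 in control cells and 1.68, 1.31 and 2.06 in ETO2-GLIS2 cells. CDKN2A, which encodes a further INK4 inhibitor, was not called, at 5.59, 7.72 and 8.84 FPKM with AML1-ETO. It was at 6.26, 7.31 and 6.77 in control cells and at 7.03, 7.56 and 7.09 in ETO2-GLIS2 cells. Of the INK4 genes, CDKN2B and CDKN2A thus were above 0 h at 48 h with AML1-ETO where CDKN2C and CDKN2D were below.

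In ETO2-GLIS2 cells 0 of 21 were called at 48 h. There E2F1 was at 13.5, 18.6 and 7.59 FPKM and E2F2 at 6.50, 11.4 and 11.1. In control cells these were at 18.6, 27.7 and 17.1 and at 12.0, 17.2 and 11.8. E2F1 was thus highest at 12 h in all 3 lines, and E2F2 in control cells. In ETO2-GLIS2 cells E2F2 at 48 h was within counting error of 12 h, at -0.04 (-0.16 to 0.09). FBXW7, the ubiquitin ligase subunit that targets cyclin E protein, was at 2.23, 3.04 and 3.89 FPKM with ETO2-GLIS2, at 2.50, 3.39 and 3.63 with the empty vector and at 2.87, 3.21 and 3.68 with AML1-ETO.

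CDKN1A was also set beside 25 other p53 targets. In ETO2-GLIS2 cells 1 of 18 tested rose at 12 h, beside 2.64% of all tested genes called, and at 48 h 2 of 19 rose and 0 fell, beside 7.52% of all tested genes called. MDM2, the ligase that degrades p53, was at 2.48, 8.43 and 11.2 FPKM there, when CDKN1A was at 15.3, 11.4 and 24.1. MDM2 stayed between 2.13 and 2.93 FPKM in the other 6 libraries. In AML1-ETO cells 1 of 19 rose at 12 h, PMAIP1, a BH3-only death gene, 2.92-fold. At 48 h 1 of 17 rose and 3 fell, beside a background of 22.5%. That count leaves out PMAIP1 (5.40-fold) and SESN2 (5.64-fold), which were past 2-fold in control cells too. TNFRSF10B, a death receptor, fell there from 22.3 to 7.27 FPKM. SESN2, a stress response gene, went from 14.4 to 47.0 FPKM in control cells at 48 h, where 3 of 20 targets rose against a background of 11.0%.

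Set against control cells at the same hour, AML1-ETO cells had more genes called at 48 h, among the 10 as among all tested genes. At 0 h CCND3 was the 1 of 10 genes called (background 4.90%), and it was so again at 12 h (background 8.77%), with 7.46 against 22.2 FPKM. At 48 h 5 of 10 were called (background 23.5%), CDK6 higher and CCND3, CCNE1, CCNE2 and CDKN2D lower. The 4 lower genes were 2.74-fold, 2.08-fold, 2.78-fold and 4.33-fold below the control. CDKN2C was just short of the limit, with -0.98 (-1.13 to -0.84).

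In ETO2-GLIS2 cells fewer of the genes were called against the control. CCND3 alone was called at 0 h (1 of 10, background 6.41%), and 0 of 10 were called at 12 h (background 6.94%) and at 48 h (background 6.67%). Between the fusion clones 0 of 10 were called at 0 h (background 6.90%). At 48 h 4 of 10 were called (background 21.2%), with CCND3, CCNE2, CDKN2C and CDKN2D lower with AML1-ETO. CDKN2D had the widest gap, 2.18 against 13.9 FPKM or -2.67 (-3.13 to -2.24).

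**Figure D4:**
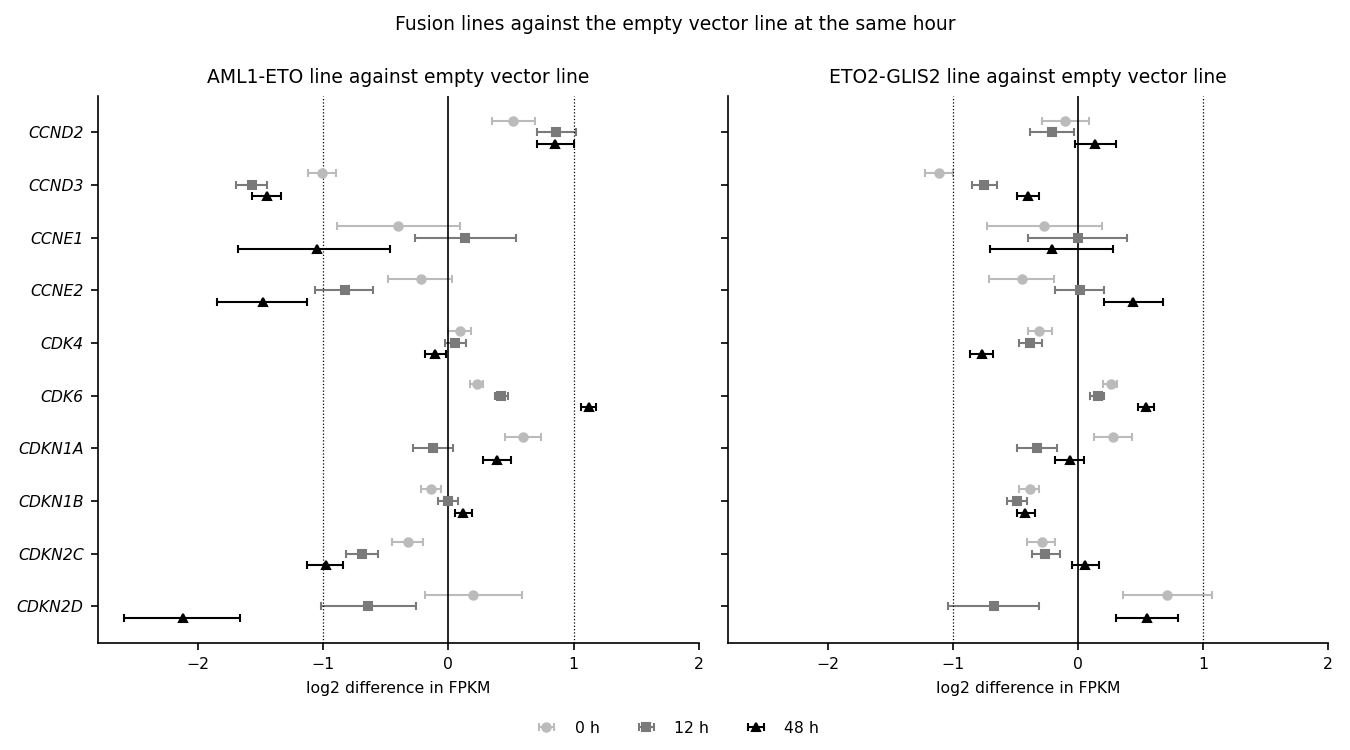
Log2 difference in FPKM (horizontal axis) between each fusion line and control cells at 0 h (light circles), 12 h (grey squares) and 48 h (black triangles), with 95% counting intervals; dotted lines mark 2-fold. CCND3 starts at -1.01 with AML1-ETO and -1.11 with ETO2-GLIS2 and moves to -1.45 and -0.40, and CDKN2D reaches -2.12 with AML1-ETO at 48 h.

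Among 9774 genes, those with a profile most like the 3 most variable members over the 9 libraries were listed by Pearson's r of log2 FPKM, as a description of libraries that share lines and times. For CDKN2D they were SNTB1 (r = 0.97), ZFYVE28 (0.95) and RNU1-22P (0.92). For CCNE2 they were CELF2 (0.97), AC079466.1 (0.96) and DHRS7B (0.95). For CCND3 they were PPFIBP2 (0.94), TOM1 (0.93) and NDST1 (0.92).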

How the data were processed

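RNA of the 9 libraries was prepared with a TruSeq RNA v2 kit and sequenced by the authors. Per the labels and the study's methods, reads were aligned to hg38 with HISAT2 (2.0.5), handled with SAMtools (1.7) and counted per gene with HTSeq (0.9.1) at default settings, and DESeq2 (1.22.2) is listed among the tools. The authors deposited FPKM for 60623 genes in each library. HTSeq counts by strand by default, whereas this kit does not mark strand, so reads from overlapping genes on opposite strands cannot be told apart, and part of each gene's reads may have gone uncounted. The annotation version is not given in the sources used here.

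Where a gene name repeated, the identifier with the highest mean FPKM was kept. Reads were recovered from the decimals of FPKM as whole numbers for 23887 of 23889 genes above 0 in at least 3 libraries. On simulated data 99.4% of 22571 genes were given their exact reads. Recovered reads entered only the intervals: exact Clopper-Pearson for ratios, exact Poisson for levels, and a normal approximation on log reads for differences of changes. All are 95% intervals on counting error, for reads that carry no molecular identifiers and so may be copies of one another. The floor of 3 reads was never reached by these 10 genes.

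Calls used a 2-fold threshold on log2 of FPKM plus 0.01 and a mean FPKM of at least 1. On simulated data for AML1-ETO at 48 h against 0 h, 199 of 200 genes changed 4-fold were called among 23887. A 4-fold change clears the 2-fold threshold with ease, so this count does not bear on changes near 2-fold. With 1 library per condition no p-value was computed. The 10 genes and the gene lists were chosen with earlier results of these data known. Genes named from the lists were the 3 with the largest 48 h change in each fusion line, or some of these. MS4A1, CDKN2A, CDKN2B and the myeloid markers were named after their values were seen. Alternatives were pseudocounts of 0.1 and 1 FPKM, 3 rescalings, filters of none and 5 FPKM, a 1.5-fold threshold, no exclusion of genes that moved in the empty vector line, and subtraction of that line. Exon overlaps used GENCODE annotation lifted to GRCh37, and promoters and gene positions came from RefSeq. Python (3.11.15), numpy (2.4.6), pandas (2.3.3), scipy (1.17.1) and matplotlib (3.10.9) were used.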

Additional observations from a re-analysis of the deposited data

Results flagged for a closer look

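In 3 of the genes the values at both 12 and 48 h lay on opposite sides of the 0 h value in a pair of lines. None of these differences was tested, since each condition has 1 library. CCND3 was below its start with AML1-ETO and above it with ETO2-GLIS2 and with the empty vector, and the 48 h log2 changes differed by -1.15 and -0.45. CDKN2C showed the same arrangement, with differences of -1.01 from the ETO2-GLIS2 line and -0.66 from the empty vector line. CDKN2D was below its start with AML1-ETO and above it with the empty vector, a difference of -2.32. Against the empty vector the opposite sides of CCND3 and CDKN2C depend on the scaling. The empty vector changes were within counting error for CCND3 at 12 h, 0.04 (-0.05 to 0.13), and for CDKN2C at 12 h, 0.10 (-0.02 to 0.21), and 48 h, 0.06 (-0.05 to 0.18). After rescaling by the median ratio they were -0.11, -0.05 and -0.09. CDKN2D with AML1-ETO at 12 h was also within counting error, at -0.21 (-0.61 to 0.18). It does not enter for the ETO2-GLIS2 line, where it was below its start at 12 h and above it at 48 h.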

How the results depend on the processing

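No paired analysis was possible because each condition has 1 library, and with no replicates none was left out. Of 132 counts of called G1 genes under the alternatives, 108 stayed within 1.5 times the main count, and the cause of the other changes was not tested. In the order control, AML1-ETO and ETO2-GLIS2, a 1.5-fold threshold gave 2, 2 and 2 genes at 12 h and 2, 6 and 3 at 48 h, and 2 in control cells from 12 to 48 h. Against control it gave 2 and 5 genes at 0 and 12 h with AML1-ETO, and 2, 2 and 1 at 0, 12 and 48 h with ETO2-GLIS2. A pseudocount of 1 FPKM gave 0 genes at 48 h in control cells and in AML1-ETO cells, 0 at 12 h in ETO2-GLIS2 cells and 0 at 0 h between AML1-ETO and control cells. A filter of 5 FPKM gave 0 genes at 48 h and 1 from 12 to 48 h with AML1-ETO, 0 at 12 h with ETO2-GLIS2, and 3 at 48 h between AML1-ETO and control cells. At 48 h in control cells the median ratio gave 0 genes and a common sum gave 2, and a common sum gave 1 with ETO2-GLIS2. Subtraction of the control change left 1 gene from 12 to 48 h with ETO2-GLIS2, and at 12 h it kept the count at 1 but replaced CCNE2, then at 0.46, by CDKN2D, lower at -1.38.

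Rescaling by the median ratio moved log2 FPKM by between -0.07 and 0.11 a library, and turned the sign of 7 of 60 changes of the G1 genes, none above 0.11 in size. A common sum turned 3, none above 0.14, and leaving out mitochondrial genes turned 1, of 0.01. For the replication genes in control, AML1-ETO and ETO2-GLIS2 cells, the median ratio gave -0.06, -0.27 and 0.17 at 12 h, and -0.60 in control and -0.79 in ETO2-GLIS2 cells at 48 h. A common sum gave them 0.38 at 12 h and -0.44 at 48 h with ETO2-GLIS2 and -1.36 at 48 h with AML1-ETO. A pseudocount of 1 FPKM gave -1.25 at 48 h and -1.17 from 12 to 48 h with AML1-ETO. Subtraction of control gave -0.21, -1.16 and -0.94 with AML1-ETO and 0.13, -0.16 and -0.29 with ETO2-GLIS2, at 12 h, at 48 h and from 12 to 48 h. For the mitosis genes the median ratio gave -0.20, -0.34 and -0.20 at 12 h and -0.26 at 48 h with ETO2-GLIS2. A common sum gave 0.04 in control and 0.01 in ETO2-GLIS2 cells at 12 h, -0.76 from 12 to 48 h with AML1-ETO, and 0.09 at 48 h and 0.09 from 12 to 48 h with ETO2-GLIS2. Depth limits CCNE1, with 36 to 119 reads, and CDKN2D, with 50 to 343, most.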
